A study of Mus musculus with 13 samples.

Results

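The comparison is between the end of cuprizone feeding and 2 weeks of recovery in the mouse brain, measured by bulk RNA-seq. The 4 CPZ libraries came from male mice fed 0.3% cuprizone for 4 weeks and collected at week 4, and the 4 RCV libraries from male mice fed the same diet for 4 weeks, switched to control diet for 2 weeks and collected at week 6. These 8 libraries, chosen by the treatment field of the labels, are part of a series of 13, and the other 5 libraries (CTL) came from mice kept on control diet and collected at week 6. The labels give the mice as 6 to 8 weeks old and the methods of the study give an older age. The tissue is labelled as 1 frozen hemisphere of the brain, and the methods of the study name wild-type C57BL/6J mice, with no transgene in any group. Both groups therefore share the diet of the first 4 weeks, and CTL mice never received cuprizone. The 2 groups differ in the time since cuprizone and in the week of collection, and these cannot be told apart. The labels and the methods of the study state 3 CPZ, 3 RCV and 4 control mice, while 4, 4 and 5 libraries are labelled, so whether every library came from a separate mouse was not settled here. Elsewhere the study gives sample numbers that match these libraries.

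Cuprizone is a copper chelator that kills mature oligodendrocytes, the cells that wrap axons in myelin. While it is fed, microglia, the resident phagocytes of the brain, multiply and take up myelin debris, and astrocytes become reactive. When it is withdrawn, oligodendrocyte precursors (OPCs) differentiate into new oligodendrocytes that restore the myelin sheath, which needs large amounts of cholesterol and glycolipids made within the brain. The question addressed by this comparison is which transcripts moved during those first weeks after withdrawal.

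Total counts were between 6743042 and 8197268 in the CPZ libraries and between 4605076 and 6990703 in the RCV libraries, so the RCV values of scarce transcripts carry the larger counting error. Libraries of the same group differed by more than counting noise, with a chi-square of 4.46 to 13.8 per gene over the 12 pairs. The CPZ pairs that held replicate 1 gave 11 to 13.8, the other CPZ pairs 4.46 to 5.74 and the RCV pairs 5.05 to 9.84. Mitochondrial transcripts took 3.76% to 5.07% of the counts over the 13 libraries, and 1 ribosomal RNA gene took 0.548% to 5.32%. The libraries did not hold the same brain regions in the same amounts. The mean log2-CPM of 8 choroid plexus markers was 3.68 and 4.89 in RCV replicates 1 and 2 but 1.00 and 1.03 in RCV replicates 3 and 4, against 3.86 to 5.50 in CPZ. Ttr, the choroid plexus carrier of thyroid hormone and retinol, had 10 and 8 counts in RCV replicates 3 and 4 and between 3000 and 14785 in the other 6 libraries. The mean over 9 striatal markers was 3.89 in RCV replicate 3 and between 5.78 and 7.39 in the other 7 libraries. The count of each list that had at least 1 call is therefore also given without RCV replicates 3 and 4 where it changed, or else the named calls that were lost.

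CPM are counts scaled to a common library size after the TMM method of edgeR, which corrects for differences in library composition. A log2 fold change is RCV minus CPZ, so a negative value means lower after recovery, and it is given with its standard error (SE). A gene was called when its adjusted p from the quasi-likelihood test of edgeR was below 0.05, where the adjustment (Benjamini-Hochberg) ran over the 14985 genes that passed a filter on low counts. The p values measure only the spread between these libraries. A list score is the mean log2-CPM of the tested members of a list in 1 library. Levels of different genes are compared only as TPM, which is per transcript length.

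From CPZ to RCV, 769 genes fell (5.13% of those tested) and 281 rose (1.88%), together 7.01%, and the median log2 fold change of all tested genes was 0.0066. For 8.26% of all tested genes every RCV library lay below every CPZ library, and for 4.93% every RCV library lay above. Counts of calls in the lists below are to be read beside these shares. Falls were larger than rises. Of the genes that fell, 366 did so by at least 2-fold, 62 by at least 4-fold and 10 by at least 8-fold, and of those that rose 60, 12 and 1 passed the same steps. A gene could pass the count filter through the libraries of 1 group alone, so some large falls, such as those of Trib3 and C5ar1, rest on few RCV counts. The mean RCV level of the genes that fell was still above every CTL library for 367 of them and within the CTL range for 366. Of the genes that rose, 213 had a mean RCV level within the CTL range, 56 above it and 12 below it. Without RCV replicates 3 and 4, the calls were 374 falls and 182 rises. With the choroid plexus score as a covariate they were 374 and 209. The number of rises also rested on single libraries, with 113 without CPZ replicate 1, 156 without CPZ replicate 2 or 3, 176 without RCV replicate 1 and 183 without RCV replicate 3.

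**Figure D1:**
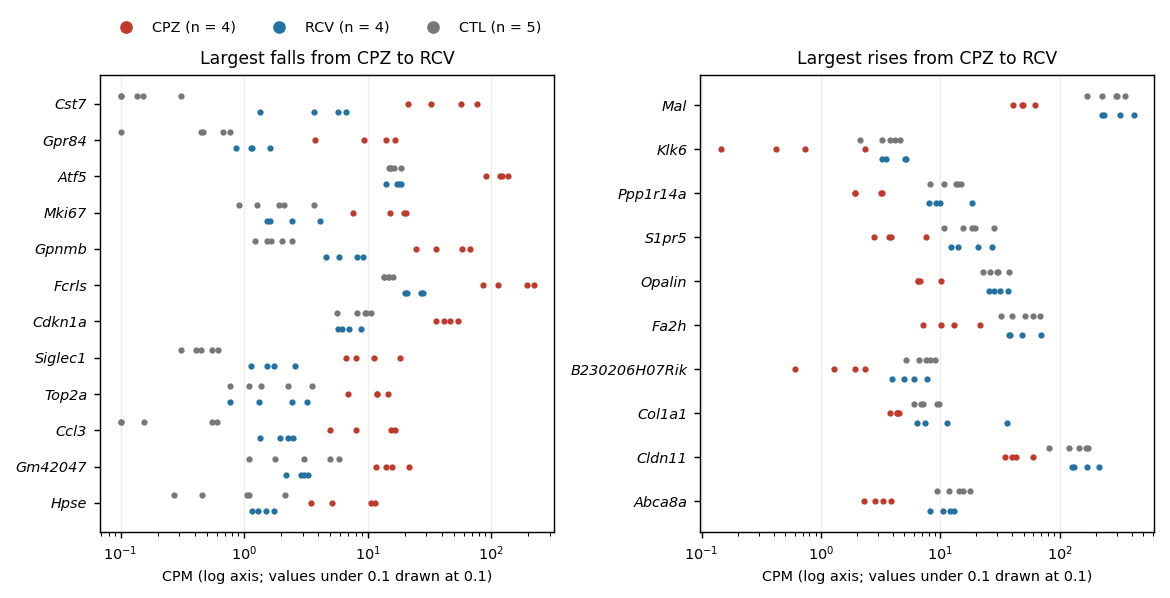
CPM of the 12 largest falls (left) and 10 of the 12 largest rises (right) from CPZ to RCV, on a log axis, restricted to called genes whose log2-CPM averaged 1 or more and whose CPZ and RCV libraries did not overlap. Each point is 1 library, with CPZ in red, RCV in blue and CTL in grey. The RCV points of Atf5, Mki67, Cdkn1a and Top2a lie in or near the CTL range, whereas those of Cst7, Gpnmb and Siglec1 lie between CTL and CPZ.

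Microglial transcripts fell together. All 18 tested members of the general microglia list were called lower in RCV, against 5.13% of all genes, with log2 fold changes from -2.37 to -1.14 and a median of -1.69. This list and all others were chosen with earlier results of these data known, so such shares are a description and no test. The list score was 5.92 to 7.03 in the CPZ libraries, 4.59 to 5.05 in the RCV libraries and 3.79 to 4.06 in the CTL libraries, and for all 18 genes the mean RCV level was still above every CTL library. In bulk tissue, fewer cells of a type and less RNA per cell cannot be told apart. The count was 17 or 18 under every alternative run.

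Ly86, which encodes a partner protein of a Toll-like receptor relative, fell most within this list. Its CPM were 115, 112, 44.1 and 57.97 in CPZ replicates 1 to 4 and 16.3, 16.2, 13.5 and 17.8 in RCV replicates 1 to 4. The RCV libraries were close to each other and all below the lowest CPZ library, and the log2 fold change was -2.37 (SE 0.293, adjusted p = 0.000528). Trem2, the lipid-sensing receptor of microglia (chromosome 17, 48346401 to 48354147), had 96.1, 90.7, 43.6 and 57.7 CPM in CPZ and 18.8, 23.2, 13.7 and 29.7 in RCV. It fell by 1.76 on the log2 scale (SE 0.2601, adjusted p = 0.00141). Csf1r, the receptor for the growth factor on which microglia depend, fell less, by 1.14 (SE 0.147, adjusted p = 0.00048). The complement gene C1qa fell by 1.69 (SE 0.245, adjusted p = 0.00149). In these genes CPZ replicates 1 and 2 were the highest libraries and CPZ replicates 3 and 4 lower.

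Genes of homeostatic microglia, those that mark the resting state, also fell, in 9 of 10 tested members with a median log2 fold change of -1.01, and in 7 without RCV replicates 3 and 4. P2ry12, the purine receptor that guides microglial processes, had 52.4, 54.9, 31.6 and 38.99 CPM in CPZ and 23.02, 21.4, 24.6 and 22.98 in RCV, against 17.8 to 25.8 in CTL. Tmem119, a surface marker that blood-derived macrophages lack (chromosome 5, 113793729 to 113800516), fell by 1.24 (SE 0.204, adjusted p = 0.00204) to 16.4 to 18.9 CPM, where CTL libraries had 16.0 to 20.5. Both genes thus stood within the CTL range after recovery. The largest fall of the list was that of Olfml3, a secreted protein of microglia, at -2.04 (SE 0.242, adjusted p = 0.000428). The called members divided into 4 with a mean RCV level within the CTL range and 5 above it.

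Genes of phagocytic, lipid-laden microglia fell over a wide range. Of 23 tested members, 19 fell, and 12 did without RCV replicates 3 and 4. Only 13 members could be tested when at least 10 counts were required in every library, and 11 of these fell. The list had a median log2 fold change of -1.55 and values down to -3.70, and 17 of the 19 had a mean RCV level above every CTL library. Ch25h, which makes the signalling sterol 25-hydroxycholesterol (chromosome 19, 34473778 to 34475164), had 14.3, 17.02, 3.61 and 9.17 CPM in CPZ and 0.4398, 1.62, 0.577 and 0.651 in RCV. Its log2 fold change was -3.70 (SE 0.526, adjusted p = 0.000692). Cst7, the endosomal inhibitor cystatin F (chromosome 2, 150570415 to 150578944), had 77.2, 57.6, 21.1 and 32.7 CPM in CPZ and 5.72, 6.64, 1.35 and 3.69 in RCV. That is a fall by 3.39 (SE 0.459, adjusted p = 0.00099), and CTL libraries held between 0 and 0.307 CPM, so Cst7 remained above CTL in every RCV library. Gpr84, a receptor for medium-chain fatty acids, fell by 3.15 (SE 0.458, adjusted p = 0.000759), and the glycoprotein Gpnmb by 2.71 (SE 0.317, adjusted p = 0.000386).

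Other genes of this list fell by less. Clec7a, the receptor Dectin-1, had 60.4, 46.1, 33.02 and 35.1 CPM in CPZ and 10.1, 18.3, 6.16 and 17.6 in RCV, where the CTL maximum was 0.612, and fell by 1.75 (SE 0.273, adjusted p = 0.00166). Cd68, a lysosomal membrane protein of phagocytes (chromosome 11, 69664213 to 69666153), had 112, 101, 51.1 and 69.2 CPM in CPZ and 16.9, 21.9, 15.2 and 24.1 in RCV, and fell by 2.10 (SE 0.244, adjusted p = 0.000386). In both genes every RCV library was below every CPZ library and above every CTL library. Apoe, the main lipid carrier of the brain, fell by 0.62 (SE 0.135, adjusted p = 0.0111), from 5786 ± 1209 to 3791 ± 469 TPM (SD, n = 4 each), the smallest fall among the genes of this list named here. Axl, a receptor for dying cells, fell by 0.85 (SE 0.109, adjusted p = 0.000352), the lipase Lpl by 1.55 (SE 0.301, adjusted p = 0.00856) and the growth factor Igf1 by 1.15 (SE 0.223, adjusted p = 0.00489). The calls of Apoe, Lpl and Igf1 were lost without RCV replicates 3 and 4 (adjusted p = 0.117, 0.0756 and 0.0596).

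In addition, 3 genes among the 12 largest falls are known from microglia and macrophages. Fcrls, an Fc receptor-like protein, fell by 2.68 (SE 0.277, adjusted p = 0.000301), and its RCV libraries at 20.2 to 28.2 CPM lay close above the CTL range of 13.5 to 16.1. Siglec1, a sialic acid receptor induced by interferon, fell by 2.67 (SE 0.326, adjusted p = 0.000294). Hpse, the enzyme that cleaves heparan sulphate, fell by 2.41 (SE 0.466, adjusted p = 0.00496), a call that was lost without RCV replicates 3 and 4 (adjusted p = 0.0679). The 12 largest falls also held Gm42047, a long intergenic RNA without a known role that overlaps Galnt2l on the same strand, at -2.45 (SE 0.359, adjusted p = 0.00084). Its reads were not told apart from those of Galnt2l here.

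Markers of other leukocytes were scarce. Of 7 markers of border macrophages only 2 passed the filter, and edgeR, DESeq2 and limma-voom called 0 of them, with 0 at an unadjusted p under 0.05, and the other 5 had at most 13 counts in any CPZ and 8 in any RCV library. Of 12 markers of blood leukocytes, 1 passed the filter and was not called. The others had at most 4 counts in any CPZ library and 35 in any RCV library, the 35 being S100a8, a neutrophil gene. Ms4a4b, a T cell gene, reached 3 counts in CPZ and 7 in RCV, and the T cell markers Cd3e, Cd3g and Cd8a were at 0 to 2 counts.

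Lysosomal genes fell in 14 of 23 tested members (12 without RCV replicates 3 and 4), with a median log2 fold change of -0.76. Grn, the lysosomal regulator progranulin, had 342, 312, 162 and 224 CPM in CPZ and 66.9, 72.3, 64.3 and 68.5 in RCV, and fell by 1.93 (SE 0.191, adjusted p = 0.000251). The mean RCV level of 11 of the 14 was above the CTL range and that of 3 within it. Genes of cholesterol efflux and lipid storage fell in 6 of 13, and in 4 without RCV replicates 3 and 4. Abca1, the exporter that loads cholesterol onto lipoproteins (chromosome 4, 53030787 to 53159895), fell by 1.22 (SE 0.144, adjusted p = 0.000351), and Plin2, the coat protein of lipid droplets, by 1.30 (SE 0.224, adjusted p = 0.00187). For 5 of these 6 genes the mean RCV level was within the CTL range.

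Of 13 tested members of a complement list that holds no C1q gene, 4 fell (3 without RCV replicates 3 and 4), among them C5ar1 and C3ar1, the receptors for complement fragments, and Itgb2, the shared subunit of complement receptors. When at least 10 counts were required in every library, 8 members could be tested and 2 fell. C5ar1 had 6.92, 6.81, 3.47 and 5.29 CPM in CPZ and 0.733, 0, 0.7698 and 0.651 in RCV, the latter on 0 to 5 counts, at a log2 fold change of -3.37 (SE 0.436, adjusted p = 0.000351). C3ar1 fell by 1.76 (SE 0.226, adjusted p = 0.000352) and Itgb2 by 2.05 (SE 0.2495, adjusted p = 0.000418). The C1q genes, which are members of the microglia list, fell as well, C1qa by the value given above, C1qb by 1.68 (SE 0.241, adjusted p = 0.0014) and C1qc by 1.92 (SE 0.238, adjusted p = 0.000567).

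The complement components C4b and C3 were not called. C4b (chromosome 17, 34728380 to 34743882) had 143, 137, 131 and 144 CPM in CPZ and 113, 136, 108 and 103 in RCV, at a log2 fold change of -0.27 (SE 0.0855, adjusted p = 0.0746), where CTL libraries had 26.4 to 34.4. RCV replicate 2 was the library that overlapped CPZ, and without it C4b was called lower at -0.36 (adjusted p = 0.00966). Reads of C4b may be shared with its near-identical copy C4a. C3 was at 8.00 ± 2.34 CPM in CPZ and 8.57 ± 2.78 in RCV (SD, n = 4 each), with a log2 fold change of 0.12 (SE 0.425, adjusted p = 0.926). This value turned negative without CPZ replicate 3, without RCV replicate 2 and with the share of ribosomal RNA as a covariate.

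Genes of antigen presentation were listed by class, and the lists were not compared by a test. MHC class I genes, whose products show peptides to cytotoxic T cells, fell in 9 of 12 tested members with a median log2 fold change of -0.75. The count was 3 without RCV replicates 3 and 4 and with the choroid plexus score as a covariate, 5 without CPZ replicate 1 or 2, and 3 to 5 on TPM. B2m, the shared light chain, had 279, 231, 169 and 222 CPM in CPZ and 96.2, 109, 75.6 and 98.01 in RCV and fell by 1.25 (SE 0.134, adjusted p = 0.000251). The immunoproteasome subunit Psmb8 fell most, by 1.33 (SE 0.236, adjusted p = 0.00239). H2-D1, a heavy chain whose reads may be shared with related H2 genes, fell by 0.72 (SE 0.166, adjusted p = 0.018), a call that was lost without CPZ replicate 1 or 2 and without RCV replicates 3 and 4 (adjusted p = 0.13). Of the 9 genes, 8 had a mean RCV level above the CTL range.

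Of 6 tested MHC class II genes, whose products show peptides to helper T cells, only H2-DMb1, a peptide exchange factor, was called, at -1.45 (SE 0.302, adjusted p = 0.00699). This call was lost without RCV replicates 3 and 4 (adjusted p = 0.0598) and when TPM were tested in place of counts (adjusted p = 0.0701). The median of the 6 was 0.62, above 0. Cd74, the invariant chain, had 16.6, 7.54, 13.9 and 8.91 CPM in CPZ and 15.4, 26.9, 10.2 and 35.99 in RCV, at a log2 fold change of 0.91 (SE 0.381, adjusted p = 0.211). RCV replicates 2 and 4 were above every CPZ library, and RCV replicates 1 and 3 were not. Cd74 was called higher with the hippocampal or the striatal score as a covariate (adjusted p = 0.00607 and 0.0198).

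**Figure D2:**
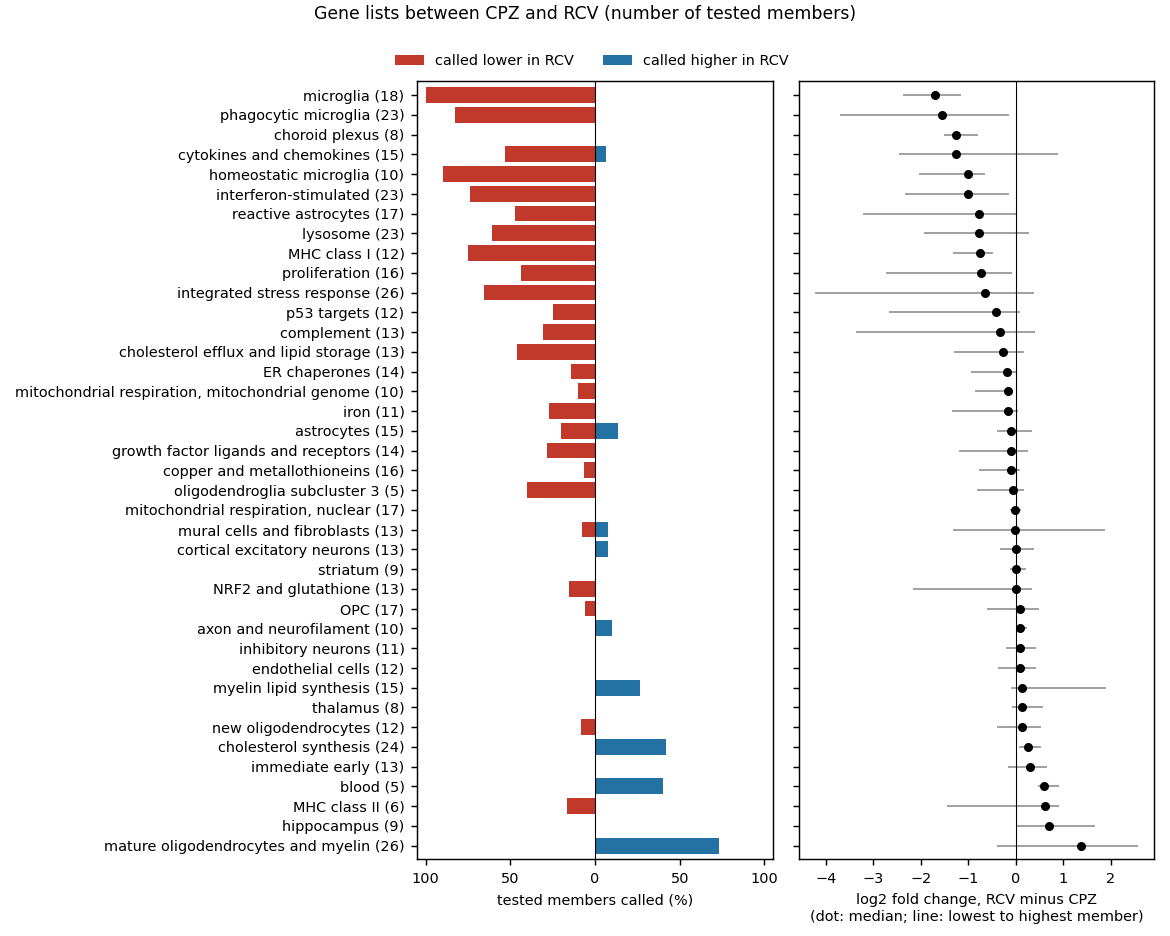
Gene lists between CPZ and RCV, ordered by median log2 fold change, with the number of tested members in parentheses. Left, percent of tested members called lower (red) or higher (blue) in RCV. Right, median (dot) and lowest to highest (line) log2 fold change of the members, RCV minus CPZ. The calls in microglial, interferon and stress lists are all falls, and those in the list of mature oligodendrocytes and myelin all rises (19 of 26). Members not called reach 0.39 in the integrated stress response list and -0.39 in the list of mature oligodendrocytes and myelin. The choroid plexus list has a low median with no call.

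Interferon-stimulated genes fell in 17 of 23 tested members, with a median log2 fold change of -1.004 and no rise. The count was 7 without RCV replicates 3 and 4, 6 with the choroid plexus score as a covariate, 10 without CPZ replicate 1 and 6 to 7 on TPM. When at least 10 counts were required in every library, 15 members could be tested and 11 fell. List scores were 3.43 to 3.98 in CPZ, 2.50 to 2.72 in RCV and 1.64 to 2.13 in CTL, and for 15 of the 17 the mean RCV level was above the CTL range. Promoters of several members are shown here because they carry the interferon element. The sequences are RefSeq promoters on GRCm38.p6, 5′ to 3′ on the strand of the gene, and capitals mark matches to GAAANNGAA on either strand, where neighbouring matches can overlap.
Oas1a (called), chr5:120907526-120907590, minus strand: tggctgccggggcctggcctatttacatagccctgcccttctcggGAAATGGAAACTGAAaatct
Bst2 (called), chr8:71537543-71537647, minus strand: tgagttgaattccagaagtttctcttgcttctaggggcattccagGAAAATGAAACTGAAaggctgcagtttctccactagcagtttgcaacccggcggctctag
Gbp2 (called), chr3:142620560-142620658, plus strand: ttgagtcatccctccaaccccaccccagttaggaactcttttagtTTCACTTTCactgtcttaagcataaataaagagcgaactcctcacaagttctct
Ifit3 (not called), chr19:34583329-34583480, plus strand: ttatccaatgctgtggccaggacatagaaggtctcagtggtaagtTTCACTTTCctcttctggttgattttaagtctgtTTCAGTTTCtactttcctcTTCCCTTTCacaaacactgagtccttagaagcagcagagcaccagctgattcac

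Over the windows from 250 bases before to 50 after the start, 14 of 19 genes of the list with a promoter entry held a match (73.7%), against 9.76% of 27025 genes. Within the list, 9 of the 12 called genes and 5 of the 7 others held it. Oas1a, a sensor of double-stranded RNA, was at 6.32 ± 2.28 CPM in CPZ and 1.48 ± 0.464 in RCV, at a log2 fold change of -2.07 (SE 0.382, adjusted p = 0.00312). Bst2, the virus-tethering protein tetherin, fell by 1.76 (SE 0.207, adjusted p = 0.000251) and the guanylate-binding protein Gbp2 by 0.92 (SE 0.186, adjusted p = 0.00611). These 3 genes were chosen for their promoters after their values had been seen.

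Ifit3, an antiviral protein, had 38.5, 17.3, 29.8 and 30.5 CPM in CPZ and 18.3, 15.7, 19.1 and 14.1 in RCV, and CPZ replicate 2 lay within the RCV range. It was not called, at -0.78 (SE 0.238, adjusted p = 0.0704), but passed the threshold without CPZ replicate 2 (adjusted p = 0.0113) and with DESeq2 (adjusted p = 0.0287). Oasl2, a relative of the OAS enzymes, fell by 1.00 (SE 0.256, adjusted p = 0.0278). Mx1, a gene of the dynamin-like family that is annotated as a polymorphic pseudogene, was at -2.34 (SE 0.656, adjusted p = 0.0441). For Mx1, CPZ replicate 1 alone stood at 9.36 CPM and the other CPZ libraries between 1.58 and 3.36. Without CPZ replicate 1 its log2 fold change was -1.56, and with the choroid plexus score as a covariate it was -1.20. The calls of Mx1 and Oasl2 were lost in many alternatives, among them without CPZ replicate 1, CPZ replicate 4, RCV replicate 1 or RCV replicate 4, and without RCV replicates 3 and 4 (adjusted p = 0.28 and 0.12).

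Of 15 tested cytokines and chemokines, 8 fell and 1 rose, with a median log2 fold change of -1.27. The falls were 4 without RCV replicates 3 and 4, 5 with the choroid plexus score as a covariate and 3 on log2(TPM + 0.1). With at least 10 counts required in every library, 7 members could be tested, of which 1 fell, and the median was -0.035. Ccl3, a chemokine of activated microglia (chromosome 11, 83647844 to 83649355), had 15.6, 16.7, 4.995 and 8.01 CPM in CPZ and 2.49, 2.27, 1.35 and 1.95 in RCV and fell by 2.46 (SE 0.439, adjusted p = 0.00316). Cxcl10, the chemokine induced by interferon, had 10.2, 6.199, 6.94 and 4.91 CPM in CPZ and 2.05, 1.62, 1.16 and 1.301 in RCV and fell by 2.16 (SE 0.3598, adjusted p = 0.00149). For neither gene did the groups overlap. The call of Ccl3 was lost without RCV replicates 3 and 4 (adjusted p = 0.056).

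Il33, an alarmin that oligodendrocytes and astrocytes make (chromosome 19, 29925114 to 29960718), was the cytokine that rose. Its CPM were 26.8, 28.9, 33.99 and 38.6 in CPZ and 61.9, 81.97, 49.3 and 42.9 in RCV, at a log2 fold change of 0.89 (SE 0.178, adjusted p = 0.00775). The 4 RCV libraries spanned the CTL range of 48.3 to 62.5. RCV replicate 2, the highest library for Il33, also had the highest score of mature oligodendrocyte genes.

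Transcripts of mature oligodendrocytes and myelin rose. Of 26 tested members, 19 rose (1.88% of all tested genes did) and none fell, with a median log2 fold change of 1.37. These members, too, were chosen with earlier results of these data known. The list score was 5.08 to 5.67 in CPZ, 6.19 to 6.99 in RCV and 5.98 to 6.84 in CTL. For 18 of the 19 called genes the mean RCV level was within the CTL range, and only that of Tspan2, a tetraspanin of oligodendrocytes, was above it. The median member stood at 39.0% of its CTL mean in CPZ and at 101.6% in RCV. CPZ replicate 4 had the highest score of the CPZ libraries and RCV replicate 2 that of the RCV libraries. Between 12 and 22 members were called over the alternatives, with 18 without RCV replicates 3 and 4.

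Mal, a proteolipid of compact myelin (chromosome 2, 127633226 to 127656695), had the largest rise of all genes named here. Its CPM were 48.1, 48.98, 40.8 and 62.4 in CPZ and 318, 418, 237 and 228 in RCV, and it rose by 2.58 (SE 0.263, adjusted p = 0.000299) on the log2 scale, or 6.00-fold. Mbp, which compacts the inner faces of the myelin membrane (on chromosome 18), rose from 1062 ± 274 to 3524 ± 888.3 TPM (SD, n = 4 each). Its log2 fold change was 1.67 (SE 0.234, adjusted p = 0.00114). In neither gene did a CPZ library reach the lowest RCV library.

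Other genes of late oligodendrocytes were among the 12 largest rises. Klk6, a protease of mature oligodendrocytes (chromosome 7, 43824499 to 43832030), rested on few reads, with 1, 6, 3 and 18 counts in CPZ and 24, 31, 27 and 15 in RCV, at a log2 fold change of 2.18 (SE 0.475, adjusted p = 0.00982). Its call was lost without RCV replicates 3 and 4 (adjusted p = 0.055). Ppp1r14a, a phosphatase inhibitor, rose by 2.16 (SE 0.298, adjusted p = 0.000507) on the log2 scale and S1pr5, a sphingosine-1-phosphate receptor of oligodendrocytes, by 2.05 (SE 0.368, adjusted p = 0.00468). Opalin, a membrane protein of oligodendrocytes (chromosome 19, 41061710 to 41077113), had 6.48, 6.81, 6.52 and 10.2 CPM in CPZ and 31.7, 37.1, 28.3 and 25.6 in RCV, a rise by 2.03 (SE 0.181, adjusted p = 4.23e-05).

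Cldn11, the tight-junction protein of the myelin sheath, rose by 1.85 (SE 0.263, adjusted p = 0.00134), Mog, a surface protein of myelin, by 1.74 (SE 0.303, adjusted p = 0.00472) and Abca8a, a transporter of the ABC family, by 1.84 (SE 0.226, adjusted p = 0.000294). In S1pr5, Opalin, Cldn11 and Mog the highest CPZ library was replicate 4. Without CPZ replicate 4 all 4 remained called. The call of Abca8a was lost with limma on log2(TPM + 1) (adjusted p = 0.0886). B230206H07Rik, a processed transcript that overlaps Eps8l2 on the opposite strand, rose by 1.89 (SE 0.324, adjusted p = 0.00181). Its reads were not told apart from those of Eps8l2 here.

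Of 15 tested genes of myelin lipid synthesis, 4 rose and none fell. These were Fa2h, which hydroxylates the fatty acids of myelin glycolipids, Ugt8a, which makes galactosylceramide, Gal3st1, which sulphates it, and Cers2, which makes very long-chain ceramides. Fa2h had 10.1, 7.17, 13.04 and 21.4 CPM in CPZ and 48.7, 69.8, 37.3 and 38.2 in RCV and rose by 1.91 (SE 0.349, adjusted p = 0.00611), or 3.77-fold. Ugt8a rose by 1.43 (SE 0.266, adjusted p = 0.00635), Gal3st1 by 0.71 (SE 0.137, adjusted p = 0.00459) and Cers2 by 0.44 (SE 0.123, adjusted p = 0.044). Among these 4, the transcripts of Fa2h and Ugt8a thus rose most, and differences between the genes were not tested. With the replicate number as a block, in a fit of the CPZ and RCV libraries only, 1 of the 15 genes was called. The calls of Fa2h and Ugt8a were lost in that fit (adjusted p = 0.127 and 0.08). The call of Cers2 was lost in 17 alternatives, among them limma-voom and leaving out any of CPZ replicates 1 to 3 or RCV replicates 1 to 3.

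Genes of earlier lineage stages moved little. Of 12 tested genes of newly formed oligodendrocytes, 1 fell and none rose, a share close to the 7.01% of all genes called. The list median was a log2 fold change of 0.13. The one that fell was Itpr2, an endoplasmic calcium channel, at -0.40 (SE 0.0935, adjusted p = 0.0141). Bcas1, which marks oligodendrocytes that are starting to make myelin, had 208, 177, 234 and 273 CPM in CPZ and 219, 296, 168 and 147 in RCV, at a log2 fold change of -0.10 (SE 0.233, adjusted p = 0.878). The sign of this value turned without CPZ replicate 4 and without RCV replicate 4. Enpp6, a choline phosphodiesterase of new oligodendrocytes, was not called at 0.54 (SE 0.196, adjusted p = 0.125), but was without CPZ replicate 4 (0.72, adjusted p = 0.041).

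Of 17 tested OPC genes, Olig2 alone passed the threshold, a share close to the 7.01% of all genes called. The median member stood at a log2 fold change of 0.089, and list scores were 5.45 to 5.54 in CPZ and 5.46 to 5.58 in RCV. Olig2, the transcription factor of the whole lineage, had 46.8, 52.6, 44.1 and 40.8 CPM in CPZ and 31.8, 37.9, 25.8 and 24.9 in RCV and fell by 0.61 (SE 0.143, adjusted p = 0.0165), to a mean within the CTL range of 26.6 to 39.2. Pdgfra, the receptor that defines OPCs, missed the threshold, at 65.7 ± 4.77 CPM in CPZ and 73.1 ± 6.28 in RCV (SD, n = 4 each) and a log2 fold change of 0.15 (SE 0.0837, adjusted p = 0.347).

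The study names 5 genes of an oligodendroglial subcluster enriched in CPZ nuclei, a list drawn from nuclei of the same study and so not independent evidence of its direction. Of the 5, 2 fell, and none did without RCV replicates 3 and 4. Arap2, a regulator of small GTPases, had 163, 172, 163 and 157 CPM in CPZ and 106, 92.8, 79.7 and 89.8 in RCV and fell by 0.83 (SE 0.145, adjusted p = 0.00318). Dock1, an activator of Rac, fell by 0.56 (SE 0.122, adjusted p = 0.0101). Dock10, a relative that activates Rac and Cdc42, was not called at -0.067 (SE 0.0949, adjusted p = 0.779), and neither were Tenm4, a teneurin, at 0.18 (SE 0.0932, adjusted p = 0.306), and Pex5l at 0.10 (SE 0.159, adjusted p = 0.805). The calls of Olig2, Itpr2, Arap2 and Dock1 were lost without RCV replicates 3 and 4 (adjusted p = 0.19, 0.12, 0.054 and 0.14), that of Olig2 also without CPZ replicate 2 or RCV replicate 3, and that of Itpr2 without CPZ replicate 2 or RCV replicate 1. Those of Itpr2 and Arap2 were also lost with limma on log2(TPM + 1) (adjusted p = 0.666 and 0.0828).

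Genes of cholesterol synthesis changed by small amounts in 1 direction. Of 24 tested members, 10 rose and none fell, and the log2 fold changes of all 24 lay between 0.062 and 0.53, with a median of 0.26. List scores were 5.06 to 5.12 in CPZ and 5.33 to 5.39 in RCV and did not overlap, and CTL libraries scored higher, at 5.44 to 5.69. Of the 10 called genes, 7 had a mean RCV level below every CTL library and 3 within the CTL range. The median member stood at 73.2% of its CTL mean in CPZ and at 87.7% in RCV, and 22 of the 24 were below their CTL mean in RCV. By this measure the myelin genes stood at their CTL level after recovery and the cholesterol genes below theirs.

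Hmgcs1, an early enzyme of the pathway, was the one gene of 17 with a promoter entry to hold the sterol element TCACNCCAC on either strand, which 1.44% of all genes hold, and its promoter on GRCm38.p6 is shown with the match in capitals.
Hmgcs1, chr13:119690169-119690267, plus strand: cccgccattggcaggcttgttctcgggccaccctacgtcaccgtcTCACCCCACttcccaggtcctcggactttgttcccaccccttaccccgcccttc

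Hmgcs1 had 142, 163, 154 and 155 CPM in CPZ and 203, 182, 180.1 and 185 in RCV, against 208.4 to 262.2 in CTL. It rose by 0.29 on the log2 scale (SE 0.0723, adjusted p = 0.0222). Sqle, which opens the sterol-specific branch, was not called at 0.23 (SE 0.0759, adjusted p = 0.088), although its CPZ libraries at 38.8 to 43.4 CPM and its RCV libraries at 44.6 to 52.0 did not overlap. It passed the threshold without RCV replicate 2 (adjusted p = 0.0466). The call of Hmgcs1 was lost without CPZ replicate 1 or 3, without RCV replicate 1, and without RCV replicates 3 and 4 (adjusted p = 0.074). Over the alternatives, between 1 and 12 of the 24 genes were called, with 1 without RCV replicates 3 and 4, 2 with the choroid plexus score as a covariate and 3 to 6 without CPZ replicate 1, 2, 3 or 4 or RCV replicate 1, 3 or 4.

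**Figure D3:**
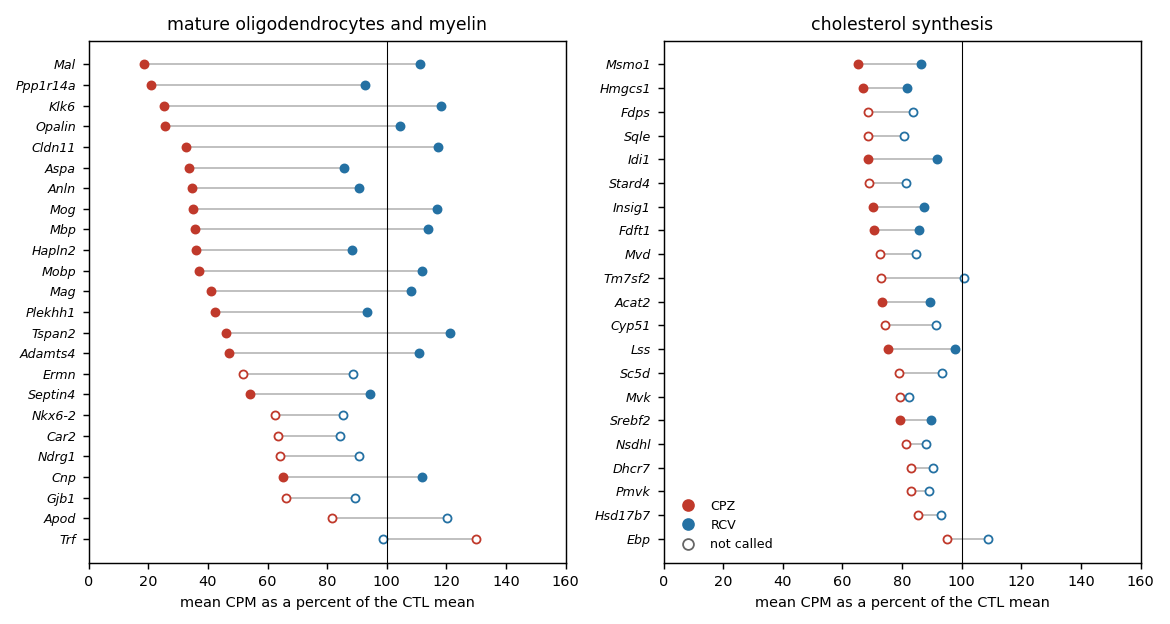
Mean CPM in CPZ (red, n = 4) and RCV (blue, n = 4) as a percent of the CTL mean (vertical line, n = 5) for 24 of 26 tested genes of mature oligodendrocytes and myelin (left) and 21 of 24 of cholesterol synthesis (right). Filled points are genes called between CPZ and RCV and open points are not called. The RCV points of myelin genes lie around 100%, whereas those of 19 of the 21 cholesterol genes lie below it.

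Reactive astrocyte genes fell in 8 of 17 tested members (5 without RCV replicates 3 and 4 and with the choroid plexus score as a covariate), with a median log2 fold change of -0.77 and none above 0. The largest fall was that of Tgm1, a transglutaminase, which had 15.7, 22.7, 6.94 and 8.91 CPM in CPZ and 1.61, 1.62, 0.962 and 1.52 in RCV, at a log2 fold change of -3.22 (SE 0.441, adjusted p = 0.000514). Vim, an intermediate filament of reactive glia, had 159, 160.3, 116 and 150.0 CPM in CPZ and 58.5, 64.5, 59.3 and 45.97 in RCV and fell by 1.35 (SE 0.158, adjusted p = 0.000351). Gfap, the intermediate filament of astrocytes (chromosome 11, 102887336 to 102900912), had 1007, 871, 792 and 891 CPM in CPZ and 473, 755, 481 and 594 in RCV. It fell by 0.63 (SE 0.157, adjusted p = 0.0276), and its lowest RCV library was still above the CTL maximum of 194.9.

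Vim thus fell further than Gfap, and this difference between genes was not tested. The call of Gfap was lost without CPZ replicate 1, 2 or 4, without RCV replicate 1, 3 or 4, and without RCV replicates 3 and 4 (adjusted p = 0.21). Serpina3n, a secreted protease inhibitor, had 103, 102, 67.4 and 95.7 CPM in CPZ and 55.1, 99.8, 44.8 and 55.3 in RCV. RCV replicate 2 stood apart from the other RCV libraries at a level of CPZ, and the gene was not called at -0.52 (SE 0.256, adjusted p = 0.298) unless this library was left out (-0.83, adjusted p = 0.035).

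General astrocyte genes changed in both directions. Of 15 tested, 3 fell and 2 rose, and all 5 had a mean RCV level within the CTL range. Those that fell were Sox9, a transcription factor of astrocytes, at -0.39 (SE 0.09196, adjusted p = 0.0162), Aldh1l1, a folate enzyme, at -0.38 (SE 0.0847, adjusted p = 0.012), and Gpr37l1, an orphan receptor, at -0.36 (SE 0.0762, adjusted p = 0.00746). Those that rose were Glul, glutamine synthetase, at 0.24 (SE 0.0699, adjusted p = 0.0474), and Fgfr3, a growth factor receptor, at 0.34 (SE 0.0923, adjusted p = 0.0338). The calls of Sox9, Glul and Fgfr3 were lost without CPZ replicate 1, CPZ replicate 2 or RCV replicate 1 and without RCV replicates 3 and 4 (adjusted p = 0.12, 0.22 and 0.13), and that of Aldh1l1 without RCV replicate 1 (adjusted p = 0.051). The calls of Glul and Fgfr3 were also lost without CPZ replicate 3, RCV replicate 3 or CTL replicate 5, and that of Glul without RCV replicate 4 or CTL replicate 1 or 3. Aqp4, the water channel of astrocyte end-feet, was not called, at 173.2 ± 15.3 CPM in CPZ and 161.3 ± 16.5 in RCV (SD, n = 4 each).

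**Figure D4:**
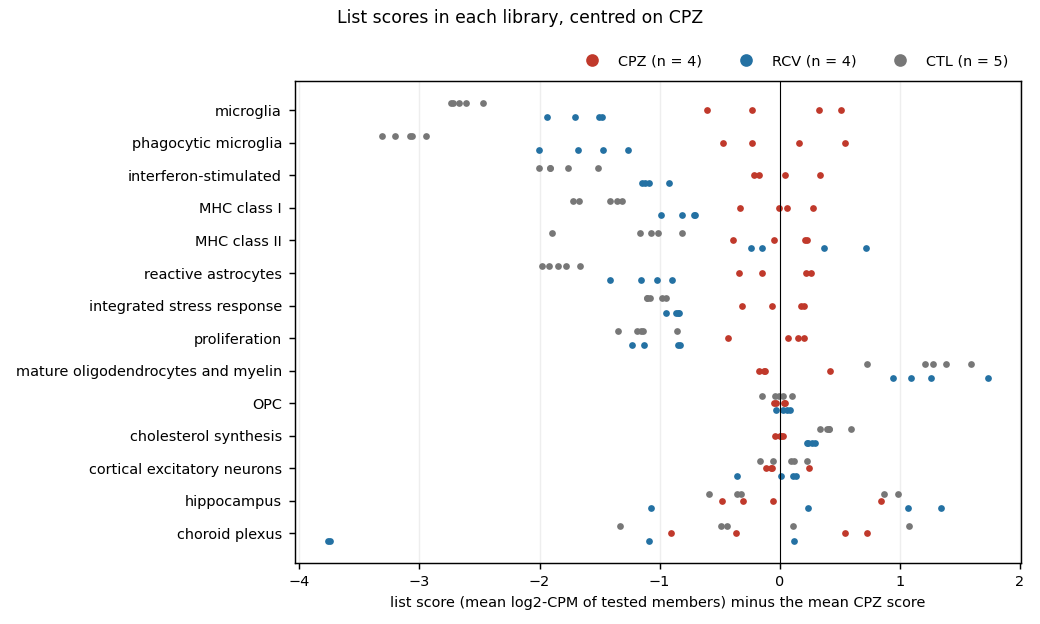
List scores (mean log2-CPM of the tested members) in each library minus the mean score of the 4 CPZ libraries, with CPZ in red, RCV in blue and CTL in grey. RCV points of the microglial and interferon lists lie between CPZ and CTL, those of the integrated stress response near CTL, and RCV replicates 3 and 4 stand apart at the left of the choroid plexus row.

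The integrated stress response, by which cells slow translation and induce amino acid and redox genes through ATF4, fell in 17 of 26 tested members (14 without RCV replicates 3 and 4) and rose in none, with a median log2 fold change of -0.64. List scores were 4.53 to 5.04 in CPZ, 3.89 to 4.00 in RCV and 3.74 to 3.89 in CTL. Of the 17 called genes, 8 had a mean RCV level within the CTL range, 8 above it and 1 below it. The promoters below are shown because the C/EBP-ATF element, TGATGNAA on either strand, is the sequence that ATF4 is known to bind with its partners. Capitals mark its matches on GRCm38.p6, 5′ to 3′ on the strand of the gene.
Trib3 (called), chr2:152344029-152344056, minus strand: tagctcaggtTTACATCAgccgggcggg
Atf3 (called), chr1:191183391-191183488, minus strand: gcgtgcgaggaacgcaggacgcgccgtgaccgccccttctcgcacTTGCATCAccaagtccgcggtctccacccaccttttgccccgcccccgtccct
Nupr1 (called), chr7:126625528-126625625, minus strand: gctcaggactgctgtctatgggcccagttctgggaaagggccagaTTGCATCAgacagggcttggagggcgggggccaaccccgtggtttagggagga
Slc7a11 (called), chr3:50443614-50443724, minus strand: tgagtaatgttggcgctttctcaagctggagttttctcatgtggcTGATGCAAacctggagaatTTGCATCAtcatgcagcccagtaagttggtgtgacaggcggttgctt
Chac1 (not called), chr2:119351004-119351101, plus strand: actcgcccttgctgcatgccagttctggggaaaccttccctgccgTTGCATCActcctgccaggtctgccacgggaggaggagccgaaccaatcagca
Asns (not called), chr6:7693210-7693277, minus strand: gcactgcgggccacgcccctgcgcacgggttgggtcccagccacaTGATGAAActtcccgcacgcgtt

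Of 24 genes of the list with a promoter entry, 9 held a match (37.5%), against 4.51% of 27025 genes, with 4 of the 14 called and 5 of the 10 others. Slc7a11, the cystine importer, held 2 matches, 66 and 47 bases before the start, and Trib3 held 1, 14 bases after it. A match is a description of the sequence and shows no binding. Promoters of Aldh1l2, Slc7a5, Slc7a3 and Eif4ebp1 were not analysed here.

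Trib3, a pseudokinase induced by ATF4 (chromosome 2, 152337422 to 152344032), had the largest fall of the list. Its counts were 89, 120, 48 and 25 in CPZ and 4, 5, 1 and 1 in RCV, or 3.23 to 14.6 CPM against 0.193 to 0.810, and its log2 fold change was -4.23 (SE 0.627, adjusted p = 0.000934). Its CTL libraries held 0 to 1.08 CPM. Atf5, a transcription factor translated under stress (chromosome 7, 44812256 to 44816658), was measured far more precisely, with 138, 123, 119 and 90.9 CPM in CPZ and 17.3, 18.8, 14.1 and 18 in RCV. It fell by 2.78 (SE 0.125, adjusted p = 4.27e-09), and the RCV libraries covered the CTL range of 14.9 to 18.5.

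Atf3, another stress-induced factor, fell by 2.03 (SE 0.308, adjusted p = 0.000774), but its RCV libraries at 1.52 to 2.75 CPM were all above the CTL maximum of 0.615. Nupr1, a small chromatin protein of the stress response, fell by 2.19 (SE 0.186, adjusted p = 1.75e-05) and Slc7a11 by 1.42 (SE 0.165, adjusted p = 0.000351). These 2 genes were chosen for their promoters after their values had been seen. Ddit3, the pro-apoptotic factor CHOP, had 27.8, 31.0, 25.4 and 20.5 CPM in CPZ and 11.7, 18.1, 12.7 and 16.7 in RCV and fell by 0.83 (SE 0.146, adjusted p = 0.00237). Atf4 itself fell less, by 0.36 (SE 0.08296, adjusted p = 0.0146), and its libraries overlapped. The call of Atf4 was lost without CPZ replicate 2 and without RCV replicate 1.

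Some classical members of the pathway were not called. Asns, asparagine synthetase, had 83.8, 88.7, 76.9 and 72.3 CPM in CPZ and 84.2, 76.5, 73.7 and 75.9 in RCV, with a log2 fold change of -0.051 (SE 0.0881, adjusted p = 0.826). Its sign turned without CPZ replicate 2. Chac1, which degrades glutathione, was not called at -0.87 (SE 0.278, adjusted p = 0.0749), and CPZ replicate 4 was the library that overlapped RCV. Without it Chac1 was called lower at -1.09 (adjusted p = 0.0082). Gdf15, a secreted stress hormone, did not pass the filter, with 14, 20, 18 and 4 counts in CPZ and 0, 0, 1 and 0 in RCV, and no fold was computed from them.

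**Figure D5:**
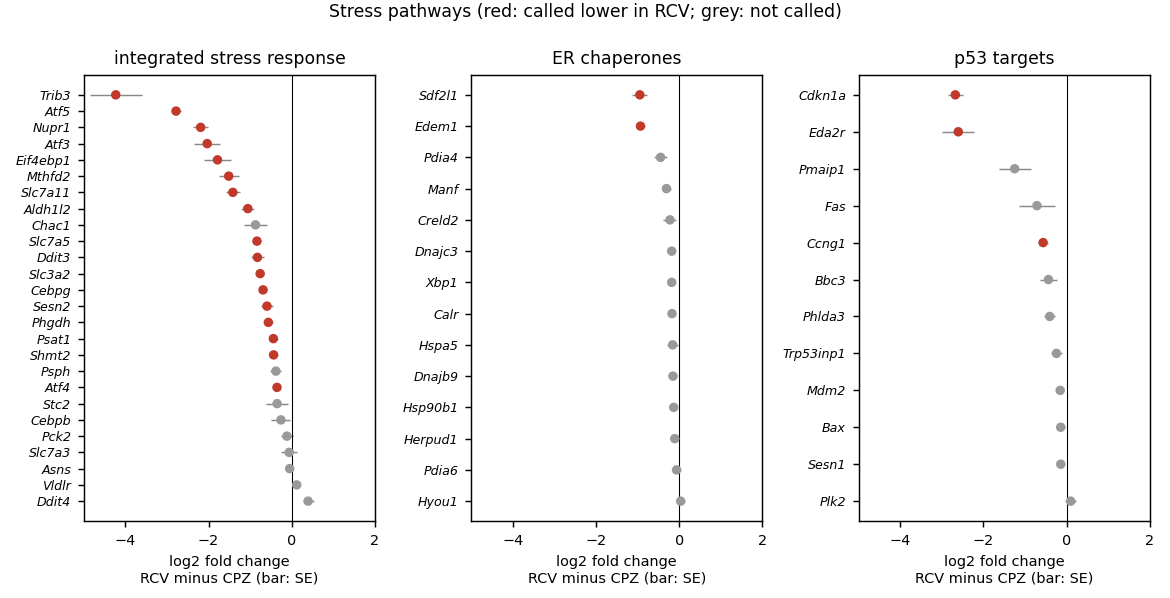
Log2 fold change, RCV minus CPZ, with its standard error, of the tested genes of the integrated stress response, ER chaperones and p53 targets. Red points are called lower in RCV and grey points are not called. Falls of the integrated stress response reach from Trib3 at -4.23 to Atf4 at -0.36, whereas only 2 of 14 chaperone genes and 3 of 12 p53 targets are called.

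Chaperones of the endoplasmic reticulum moved little by comparison. Of 14 tested, 2 fell and none rose (7.01% of all genes were called), with a median log2 fold change of -0.18. Sdf2l1, a chaperone cofactor, fell by 0.95 (SE 0.178, adjusted p = 0.0037), and Edem1, which sends misfolded glycoproteins to degradation, by 0.93 (SE 0.112, adjusted p = 0.000294), both to a mean within the CTL range. Hspa5, the central chaperone BiP, was not called, with 257, 231, 323 and 252 CPM in CPZ and 215, 265, 222 and 253 in RCV.

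Of 12 tested p53 targets, 3 fell and none rose, and 5 fell without CTL replicate 4 or without the count filter. Cdkn1a, the cell cycle inhibitor p21 (chromosome 17, 29090976 to 29100727), had 46.5, 41.5, 53.7 and 35.8 CPM in CPZ and 6.16, 7.13, 5.77 and 8.89 in RCV and fell by 2.68 (SE 0.177, adjusted p = 8.08e-07). After recovery it stood within the CTL range of 5.69 to 10.6. Eda2r, a member of the TNF receptor family, fell by 2.60 (SE 0.385, adjusted p = 0.000657), and Ccng1, a cyclin that feeds back on p53, by 0.56 (SE 0.112, adjusted p = 0.00541). The mean RCV level of Eda2r was below its CTL range of 0.6 to 1.22 CPM. Its RCV libraries rested on few reads, at 0.217 to 0.972 CPM, and overlapped that range. The call of Ccng1 was lost without RCV replicates 3 and 4 (adjusted p = 0.060).

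Proliferation genes fell in 7 of 16 tested members, and in 5 without RCV replicates 3 and 4. When at least 10 counts were required in every library, 7 members could be tested and 3 fell. Mki67, the marker of cycling cells (chromosome 7, 135689784 to 135716361), had 19.7, 20.5, 7.63 and 15.2 CPM in CPZ and 1.61, 2.43, 1.54 and 4.12 in RCV and fell by 2.74 (SE 0.395, adjusted p = 0.000774). Top2a, the topoisomerase of dividing cells, fell by 2.57 (SE 0.405, adjusted p = 0.0013). CPZ replicate 3, which had the lowest microglial score of the CPZ libraries, was also lowest for both genes. Of the 7 genes, 5 had a mean RCV level within the CTL range. The microglia list, in contrast, had 0 of 18 within it.

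Of 40 tested redox and metal genes in 3 lists, 6 fell (15%), against 7.01% of all genes called in either direction. Of 13 tested NRF2 targets and glutathione genes, 2 fell. Hmox1, haem oxygenase 1 (chromosome 8, 75093621 to 75100589), had 28.8, 22.97, 17.9 and 12.7 CPM in CPZ and 3.37, 6.64, 4.04 and 4.12 in RCV and fell by 2.17 (SE 0.267, adjusted p = 0.000315). Nfe2l2, which encodes NRF2 itself, fell by 0.68 (SE 0.138, adjusted p = 0.00609), a call that was lost without RCV replicates 3 and 4 (adjusted p = 0.087).

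Of 16 tested genes of copper handling and metallothioneins, copper being the metal that cuprizone binds, 1 was called, a share close to the 7.01% of all genes. It was Cp, the copper-carrying ferroxidase ceruloplasmin, at -0.78 (SE 0.145, adjusted p = 0.00318). Mt1, a metallothionein, was not called, at 113.7 ± 15.9 CPM in CPZ and 107.4 ± 12.2 in RCV (SD, n = 4 each), and the sign of its log2 fold change of -0.080 turned without CPZ replicate 1. Of 11 tested iron genes, 3 fell. These were Hfe, a regulator of iron uptake, at -1.35 (SE 0.197, adjusted p = 0.00059), Slc11a1, an iron transporter of phagosomes, at -1.15 (SE 0.229, adjusted p = 0.00541), and Ftl1, the ferritin light chain, at -0.62 (SE 0.107, adjusted p = 0.00226). The calls of Cp and Slc11a1 were lost when TPM were tested in place of counts.

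Of 14 tested ligands and receptors of growth factors, a list that the study chose on its own data and that is no independent evidence of a direction, 4 fell and none rose. Tgfbr2, a receptor for TGF-beta, had 93.5, 80.3, 49.5 and 68.3 CPM in CPZ and 30.9, 41.6, 25.02 and 29.7 in RCV and fell by 1.19 (SE 0.189, adjusted p = 0.0018). The ligands of the TAM receptor family fell as well, Pros1 by 0.99 (SE 0.1903, adjusted p = 0.00529) and Gas6 by 0.41 (SE 0.113, adjusted p = 0.0404). Pdgfa, the growth factor of OPCs, fell by 0.28 (SE 0.0636, adjusted p = 0.0135) to 27.97 to 29.97 CPM, below the CTL range of 32.9 to 35.2. The calls of Pros1, Gas6 and Pdgfa were lost without RCV replicates 3 and 4 (adjusted p = 0.0674, 0.293 and 0.117), and that of Gas6 also without CPZ replicate 1 or 2, RCV replicate 1, 3 or 4, or CTL replicate 1. Those of Gas6 and Pdgfa were also lost when TPM were tested in place of counts.

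Vascular genes moved little. Of 12 tested endothelial genes edgeR called 0, as did DESeq2 and limma-voom, with 2 at an unadjusted p under 0.05. Cldn5, the tight-junction protein of the blood-brain barrier, had 29.96, 28.1, 24.7 and 23.2 CPM in CPZ and 23.8, 17.98, 21.6 and 18.7 in RCV, and was not called at -0.37 (SE 0.1301, adjusted p = 0.118).

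Of 13 tested genes of mural cells and fibroblasts, 1 fell and 1 rose (7.01% of all genes were called). Fn1, the matrix protein fibronectin, had 218, 216, 100.4 and 161 CPM in CPZ and 67.7, 58.3, 93.9 and 57.5 in RCV, and fell by 1.33 (SE 0.2498, adjusted p = 0.00724). Col1a1, a chain of fibrillar collagen, had 4.32, 3.77, 4.301 and 4.52 CPM in CPZ and 36.4, 6.32, 11.4 and 7.37 in RCV, and rose by 1.89 (SE 0.496, adjusted p = 0.0396). RCV replicate 1 stood far above the other RCV libraries for Col1a1, and without it the log2 fold change was 0.98 (adjusted p = 0.0265). The call of Col1a1 was lost in 22 alternatives, among them without any one of the CPZ or CTL libraries and without RCV replicate 3.

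Neuronal transcripts were nearly level between the groups. Of 13 tested genes of cortical excitatory neurons 1 rose, with a list median of 0.0022, a share close to the 7.01% of all genes called. The called gene was Parm1, a membrane protein, at 0.39 (SE 0.107, adjusted p = 0.0402). Slc17a7, the vesicular glutamate transporter, had 745, 837, 692 and 975 CPM in CPZ and 1035, 498, 1120 and 837 in RCV, and was not called at 0.10 (SE 0.226, adjusted p = 0.871). RCV replicate 2 was the lowest of the 8 libraries, and the sign of the difference turned without RCV replicate 3.

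Of 11 tested genes of inhibitory neurons, edgeR, DESeq2 and limma-voom called 0, with 0 at an unadjusted p under 0.05. Gad1, which makes the transmitter GABA, was not called at 0.095 (SE 0.1399, adjusted p = 0.793). Of 10 tested axon and neurofilament genes 1 rose (7.01% of all genes were called), and all 10 values were above 0, between 0.017 and 0.24. It was Mapt, the axonal protein tau, which had 472, 473, 486 and 511 CPM in CPZ and 584, 575, 566 and 566 in RCV, and rose by 0.24 (SE 0.0544, adjusted p = 0.0127). Nefl, the light neurofilament, was not called at 0.085 (SE 0.0882, adjusted p = 0.682). The calls of Parm1 and Mapt were lost without CPZ replicate 1 or 2 and without RCV replicates 3 and 4 (adjusted p = 0.404 and 0.0751), and that of Parm1 also without CPZ replicate 3 or 4, RCV replicate 2, 3 or 4, or CTL replicate 2, 3 or 5.

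Immediate early genes, which mark recent neuronal activity, varied widely between libraries, with list scores of 4.33 to 4.66 in CPZ and 3.77 to 5.37 in RCV. Of 13 tested, edgeR, DESeq2 and limma-voom called 0, with 1 at an unadjusted p under 0.05. Fos had 15.9, 25.8, 17.6 and 17.6 CPM in CPZ and 5.72, 17.01, 32.1 and 24.1 in RCV, and was not called at 0.0058 (SE 0.464, adjusted p = 0.997). The median of the list was 0.30 over all libraries and -0.31 without RCV replicates 3 and 4.

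Genes of mitochondrial respiration in the nucleus were level, with a median log2 fold change of -0.022 over 17 tested members. Here edgeR, DESeq2 and limma-voom called 0, with 1 at an unadjusted p under 0.05. Of 10 genes of the mitochondrial genome 1 fell (7.01% of all genes were called). It was mt-Nd6, a subunit of complex I, at -0.27 (SE 0.0777, adjusted p = 0.0497). This call was lost in 21 alternatives, among them without CPZ replicate 1, 3 or 4 or RCV replicate 1, 2 or 3, and without RCV replicates 3 and 4.

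Region markers differed between libraries more than between groups. For the hippocampal (9 tested), thalamic (8), striatal (9), choroid plexus (8) and olfactory bulb (4) lists, edgeR, DESeq2 and limma-voom called 0 members, with 0 at an unadjusted p under 0.05. For the 3 tested cerebellar genes they called 0, with 1 at an unadjusted p under 0.05. Hippocampal scores were 2.40 to 4.81 in RCV and 2.99 to 4.32 in CPZ, and thalamic scores 3.47 to 6.13 and 4.90 to 5.70. The median log2 fold change of the choroid plexus list was -1.27 and that of the hippocampal list 0.70, both over libraries that overlapped. The part of region content in the results above was tested only through the covariates and the omitted libraries.

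Of 5 tested genes of red blood cells 2 rose, Hbb-bt, a beta chain of haemoglobin, by 0.91 (SE 0.201, adjusted p = 0.0107) and Hba-a2, an alpha chain, by 0.59 (SE 0.129, adjusted p = 0.011). Globin genes have near-identical copies that can share reads, and both calls were lost without RCV replicates 3 and 4 (adjusted p = 0.0504 and 0.0568), where 1 other member of the list was called. Without RCV replicate 3 alone, 4 of the 5 were called.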

How the data were processed

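Bulk RNA-seq of 1 brain hemisphere per library was analysed in 13 libraries, grouped by the treatment field of the labels (in their titles, RCV libraries carry the word Veh). Per the labels, libraries were made with the Kapa mRNA HyperPrep Kit and sequenced as paired-end reads on a HiSeq2500. The authors deposited RSEM estimated counts per gene and TPM, a unit that corrects for transcript length and depth, and the submitters' processing notes name STAR, RSEM and mm10 without versions. The strand setting of the counting is not given in the sources used here. Of the estimated counts, 4.447% were not whole, and they were rounded. Of 55401 gene IDs, 54349 (98.101%) matched GENCODE M21, which gave coordinates on mm10, and 92 spike-in IDs were at 0.

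Counts were filtered with filterByExpr, normalised by TMM and fitted with the robust quasi-likelihood F test of edgeR 4.0.16 in R 4.3.3, with the 13 libraries in 3 groups and RCV minus CPZ as the contrast. The Benjamini-Hochberg threshold was 0.05. SE are from this fit, and log2-CPM used a prior count of 2. The depth per library was 4605076 to 8197268 counts, which limits precision for scarce transcripts. Alternatives were DESeq2 1.42.0, limma 3.58.1 on voom values and on log2(TPM + 1) or log2(TPM + 0.1), other filters, thinning to 4605076 counts, region and ribosomal RNA covariates, a replicate block and omission of each library. The choroid plexus covariate and the omission of RCV replicates 3 and 4 were chosen after seeing the data. The edgeR fit of the 3 groups, DESeq2 and limma-voom were first tested on simulated counts, and limma was tested there on log2 CPM in place of TPM. The fits with a block or a covariate and those on log2(TPM + 0.1) were not tested in this way.

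Of the 605 genes in 43 lists, 557 were tested. Members and lists were chosen with earlier results of these data known. Named genes were the 12 largest falls and rises among called genes without overlap whose log2-CPM averaged 1 or more, and 62 genes marked in the lists and kept whatever their values. Also named were the most changed called members of each list, and all called members where a list had 5 or fewer. Some of these genes are not reported here and are left out of the figures and of the comparison of single libraries, but lists and counts include them. Promoters were RefSeq sequences on GRCm38.p6, 250 bases before to 50 after the start. Tables and figures were made with Python 3.11.15, pandas 2.3.3, numpy 2.4.6 and matplotlib 3.10.9.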

Additional observations from a re-analysis of the deposited data

Results flagged for a closer look

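Within each group of 4 libraries, the highest or lowest was compared with its nearest neighbour by Dixon's criterion. Of 316 groups examined, 15 held a library that stood apart, and chance alone sets apart about 1 group in 20.

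CPZ replicate 4 stood apart on the side of more oligodendrocyte transcript. Its score of mature oligodendrocyte and myelin genes was 5.67, against a CPZ median of 5.13. It had 10.2 CPM of Opalin and 35.1 of Mog, both members of that list, against medians of 6.66 and 17.3. Its score of cortical excitatory neurons was also the highest of the group, at 7.01. CPZ replicate 2 had the highest thalamic score of its group, at 5.70, and the lowest level of Aqp4, at 150.6 CPM.

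RCV replicate 2 stood apart in the score of growth factor ligands and receptors, at 5.95, and in Dock1, at 56.9 CPM, and Gas6, at 107.7 CPM, 2 genes whose mean fell in RCV, and it held 0 CPM of C5ar1. RCV replicate 1 had 36.4 CPM of Col1a1 against an RCV median of 9.36. RCV replicate 3 had the lowest score of cytokines and chemokines, at 2.61, and the lowest Tgm1, at 0.962 CPM. RCV replicate 4 had the lowest axon and neurofilament score, at 7.90, and the lowest Igf1, at 7.59 CPM. No explanation of these values was tested.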

How the results depend on the processing

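Of the 96 called named genes, 48 stayed called under every alternative that gave them a value and 48 lost the threshold under at least 1. Every fit on TPM lost the calls of Abca8a, Arap2, Atf4, Fgfr3, Gas6, Hmgcs1, Itpr2, Parm1, Pdgfa and Sox9, among others. The 769 falls became 457 with limma on log2(TPM + 1), 374 on log2(TPM + 0.1), 378 on log2(TPM + 1) without a filter, 374 with the choroid plexus covariate and 374 without RCV replicates 3 and 4. Leaving out 1 library gave 519 to 824 falls. The 281 rises became 185 without a filter, 142, 134 and 109 in the same 3 TPM fits, 166 with the ribosomal RNA covariate and 182 without RCV replicates 3 and 4, and leaving out 1 library gave 113 to 346. DESeq2 gave 839 falls and 357 rises, and limma-voom 739 and 263. The causes of these shifts were not tested.

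With the replicate number as a block there were 528 falls and 107 rises. Same-numbered libraries did not deviate together (correlations of -0.147, -0.0454, -0.197 and -0.169 over 5000 genes), so the numbers do not pair the libraries. No RCV library correlated best with the CPZ library of its own number.

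The sign of 8 uncalled differences turned under some settings. C3 was at -0.059 with the ribosomal RNA covariate and -0.083 to 0.30 when 1 library was left out. With the choroid plexus covariate Bcas1 was at 0.27, Dock10 at 0.048, Mt1 at 0.026, Slc17a7 at -0.31 and Fos at -0.54. Without RCV replicates 3 and 4, Bcas1 was at 0.20, Slc17a7 at -0.091 and Fos at -0.78, and with the striatal covariate Slc17a7 was at -0.0046. Fos was at -0.31 with limma-voom, -0.026 without a filter, -0.011 with at least 10 counts in every library, -0.10 with the block, -0.20, -0.22 and -0.20 in the TPM fits, and -0.022, -0.049 and -0.15 with the hippocampal, striatal and ribosomal RNA covariates. Leaving out 1 library gave -0.32 to 0.021 for Bcas1, -0.099 to 0.000198 for Asns, -0.14 to 0.011 for Mt1, -0.039 to 0.30 for Slc17a7, -0.011 to 0.18 for Gad1 and -0.35 to 0.33 for Fos.

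The libraries limit these results in 3 ways. RCV libraries were the shallower group, so genes with few counts after recovery, such as Trib3 and C5ar1, have imprecise folds. Choroid plexus, striatal and hippocampal content differed within RCV. Whether the libraries came from separate mice was not settled, and the week of collection cannot be told apart from the withdrawal of cuprizone.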

Other observations

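The genes in this section were chosen after their values had been seen. Mpeg1, the pore-forming protein perforin-2 of macrophages, had 599.7, 525, 258 and 339.5 CPM in CPZ and 82.1, 99.95, 63.51 and 104.7 in RCV, and fell by 2.30 (SE 0.251, adjusted p = 0.000365). Its RCV libraries were all above the CTL maximum of 30.6 CPM. The Toll-like receptor Tlr7, which senses single-stranded RNA, fell by 1.95 (SE 0.247, adjusted p = 0.000339), and Tlr2, which senses bacterial lipoproteins, by 1.65 (SE 0.279, adjusted p = 0.00187). Fcgr1, the high-affinity receptor for IgG, fell by 1.82 (SE 0.212, adjusted p = 0.000251), and the inhibitory receptor Fcgr2b by 2.13 (SE 0.346, adjusted p = 0.00239). The scavenger receptor Msr1 fell to 0 to 0.434 CPM from 2.31 to 4.90. Naip2, Naip5 and Naip6, whose near-identical sequences can share reads, fell as well, with Naip5 at -1.76 (SE 0.294, adjusted p = 0.00149).

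Of the 281 genes that rose, 56 had a mean above the CTL range after recovery, among them the 3 that follow. Sirt2, a deacetylase abundant in oligodendrocytes, had 129, 115, 117 and 135 CPM in CPZ and 168, 182, 148 and 142 in RCV, where CTL libraries had 110.9 to 130.3, and rose by 0.37 (SE 0.0844, adjusted p = 0.0126). Tspan2 had 55.8, 52.5, 60.2 and 73.5 CPM in CPZ and 166, 208, 136 and 127 in RCV, against 94.3 to 151 in CTL, and rose by 1.40 (SE 0.177, adjusted p = 0.000514). Nfasc, the adhesion molecule of the node of Ranvier, rose by 0.37 (SE 0.0934, adjusted p = 0.0237).

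Tsc22d3, a target of glucocorticoids, rose by 0.49 (SE 0.124, adjusted p = 0.0242) and Hif3a, a hypoxia-related factor, by 1.26 (SE 0.298, adjusted p = 0.0165). The glucocorticoid targets Sgk1, at -0.40 (SE 0.147, adjusted p = 0.138), and Fkbp5, at 0.15 (SE 0.118, adjusted p = 0.537), were not called. At the other end, some genes stood on average below the CTL range after they fell. Mthfd2, a mitochondrial folate enzyme, had 19.3, 20.2, 17.6 and 10.6 CPM in CPZ and 6.45, 8.59, 4.81 and 3.25 in RCV, against 6.12 to 7.07 in CTL, and fell by 1.52 (SE 0.236, adjusted p = 0.000975). The arginine transporter Slc7a1 fell by 0.50 (SE 0.0792, adjusted p = 0.00101) and Uhrf1, which maintains DNA methylation in dividing cells, by 2.09 (SE 0.407, adjusted p = 0.00469).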
